A study of Mus musculus with 9 samples.

Results

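The nuclear genes of oxidative phosphorylation were measured in the left ventricle of young mice after pressure overload. They were chosen by symbol: names starting with Ndufa, Ndufb, Ndufc, Ndufs, Ndufv, Uqcr, Cox4 to Cox8 or Atp5, together with Sdha, Sdhb, Sdhc, Sdhd, Cycs and Cyc1. This gave 92 of the 16698 genes in the table. By their known roles, 35 were subunits of complex I, 4 of complex II, 9 of complex III, 17 of complex IV and 15 of complex V, and Cycs was the carrier cytochrome c. The same name pattern also took in 8 complex I assembly factors (Ndufaf genes), the supercomplex factor Cox7a2l, and Atp5s and Atp5sl, which are counted apart. The choice used names only. Of the 92 members, 91 passed the filter on low values (3 or more libraries with a deposited log2 value above 0) and were tested among 13712 genes. Cox7b2, an isoform known from testis, did not pass, with values between -2.08 and -0.36.

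RNA came from hearts of ICR/CD1 mice, an outbred strain with no engineered allele named in the labels, and each heart was taken at postnatal day 14. Transverse aortic constriction (TAC) narrows the aortic arch with a ligature and raises the pressure against which the left ventricle ejects. In 3 libraries the constriction was made at postnatal day 1 (day-1 TAC), which the labels call a regenerative stage, and in 3 at postnatal day 7 (day-7 TAC), called non-regenerative. The 3 sham libraries carry no day of surgery in the labels used here, and both TAC groups were compared with the same 3 sham libraries. Age at harvest was the same in all groups, so the day of surgery and the time under load (7 days for day-7 TAC) cannot be told apart. Whether the 3 libraries of a group are separate animals is not stated in the labels, and the p-values here cover only the variation among these 9 libraries, which may be technical.

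Oxidative phosphorylation turns reducing equivalents from fat and sugar into ATP across the inner mitochondrial membrane. Complex I takes electrons from NADH and complex II from succinate, ubiquinone carries them to complex III, cytochrome c carries them on to complex IV, and complex IV reduces oxygen. Complexes I, III and IV pump protons, and complex V, the ATP synthase, lets them flow back to make ATP. Cardiomyocytes are dense in mitochondria, and their reliance on oxidative metabolism grows after birth. Complex IV carries heart and skeletal muscle isoforms of some small subunits (Cox6a2, Cox7a1, Cox8b), which take the place of ubiquitous ones (Cox6a1, Cox7a2, Cox8a) as muscle matures. All members are nuclear genes. The 13 subunits that the mitochondrial genome encodes, the common isoform Cox4i1 and the isoform Cox8c were not analysed here.

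Promoters are given for the 5 members on which the results turn: Ndufs5 and Cox7a1, which had the lowest adjusted p of the members after day-7 TAC, Cox8b and Cox6a1, a muscle and a ubiquitous isoform that moved in opposite directions, and Cycs, which was on opposite sides of sham in the TAC groups. Each line holds the 250 bases before the start of the gene in RefSeq's promoter table (build GRCm38.p6), 5′ to 3′ on the gene's strand, and capitals mark the motif letters listed after them.
Ndufs5: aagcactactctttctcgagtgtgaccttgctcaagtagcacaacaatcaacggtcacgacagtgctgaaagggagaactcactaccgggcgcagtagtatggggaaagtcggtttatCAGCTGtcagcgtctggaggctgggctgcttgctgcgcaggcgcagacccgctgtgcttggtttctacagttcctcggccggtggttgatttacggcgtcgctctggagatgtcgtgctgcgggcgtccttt
Cox7a1: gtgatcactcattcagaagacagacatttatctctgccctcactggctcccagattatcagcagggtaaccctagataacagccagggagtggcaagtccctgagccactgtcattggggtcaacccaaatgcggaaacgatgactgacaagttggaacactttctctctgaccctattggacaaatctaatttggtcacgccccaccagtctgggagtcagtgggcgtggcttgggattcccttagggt
Cox8b: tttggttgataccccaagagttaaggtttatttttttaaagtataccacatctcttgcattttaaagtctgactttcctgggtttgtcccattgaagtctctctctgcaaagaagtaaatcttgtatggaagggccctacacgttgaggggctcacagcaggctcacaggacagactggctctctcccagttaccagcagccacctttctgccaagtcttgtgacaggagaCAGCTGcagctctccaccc
Cox6a1: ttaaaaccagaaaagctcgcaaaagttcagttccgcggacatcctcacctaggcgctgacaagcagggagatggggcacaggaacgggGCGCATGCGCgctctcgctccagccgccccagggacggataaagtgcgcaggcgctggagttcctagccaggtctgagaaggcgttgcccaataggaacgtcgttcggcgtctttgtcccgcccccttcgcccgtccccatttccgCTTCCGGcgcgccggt
Cycs: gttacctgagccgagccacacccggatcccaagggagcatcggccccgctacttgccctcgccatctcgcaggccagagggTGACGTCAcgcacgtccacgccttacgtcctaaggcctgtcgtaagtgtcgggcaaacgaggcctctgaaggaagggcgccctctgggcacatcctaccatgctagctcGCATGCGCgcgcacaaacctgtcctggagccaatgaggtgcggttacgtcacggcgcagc
These stretches are chr4:123718187-123718436 on the minus strand for Ndufs5, chr7:30183921-30184170 on the plus strand for Cox7a1, chr7:140900447-140900696 on the minus strand for Cox8b, chr5:115348959-115349208 on the minus strand for Cox6a1 and chr6:50566570-50566819 on the minus strand for Cycs. In the GENCODE annotation of the same build all 5 are protein-coding genes.

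Promoters matched by symbol for 72 of the 92 members, and both strands were searched for 7 motifs. GCATGCGC, the core letters of the site of nuclear respiratory factor 1 (NRF1), stood in 9 of 72 member promoters (12.5%), against 4.9% of 10368 tested genes with a promoter. The printed Cox6a1 and Cycs promoters hold it, in Cycs 60 bases before the start, and the others that do are those of Atp5g2, Atp5k, Atp5l, Ndufa6, Ndufa8, Ndufaf4 and Sdhb. In Cox6a1 it overlaps its own reverse complement. CCGGAAG, the core that ETS factors such as GABP bind, stood in 14 (19.4%, against 15% of genes) and is marked on its reverse strand 16 bases before the Cox6a1 start. TGACGTCA, the CREB element, stood in 4 (5.56%, against 3.02%), among them Cycs. CAGCTG, an E-box of muscle regulators, stood in 6 (8.33%, against 14.7%), with Ndufs5 and Cox8b among them. TNAAGGTCA, the site of estrogen-related receptors, stood in 1 (1.39%, against 0.791%), AAGATGGC, a YY1 core, in 1 (1.39%, against 2.35%), and TATAAA in 6 (8.33%, against 7.87%). Cox7a1 holds none of the 7 in this window. Members with no matched entry included Atp5a1, Atp5f1, Atp5s, Atp5sl, Cox4i2, Cox6a2, Cox6c, Cyc1, Ndufa11, Ndufa2, Ndufa4l2, Ndufaf6, Ndufb4, Ndufb9, Ndufs1, Sdhc, Uqcrb, Uqcrc2 and Uqcrq.

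Each library held 18535202 to 26521005 recovered reads, with the same median to within the third decimal on the log2 scale. Day-1 TAC 3 stood apart in sex-linked RNA, with 10532 reads of Xist against 7 to 40 in the other 8 libraries and 18 of Ddx3y against 3312 to 4706, so results of the day-1 TAC group are also given without it. The 15 ventricular cardiomyocyte markers were all present, with summed levels of 152579 to 158389 in sham, 133491 to 143493 in day-7 TAC and 115308 to 146229 in day-1 TAC on the linear scale of the deposited values. Of these 15, Tnnt2, Ryr2 and Tcap fell and Actc1 rose after day-7 TAC. After day-1 TAC 4 fell and 2 rose. Of all genes tested 15.1% fell and 13.8% rose after day-7 TAC, and 20.5% fell and 14.3% rose after day-1 TAC. These marker counts were thus not far from the shares of all genes. Fibroblast markers summed to 3666 to 5122, 4945 to 5335 and 5265 to 7368 in the same order of groups, and neutrophil markers to 2.1 to 4.3, 30.8 to 69.2 and 7.0 to 32.1. For brown adipocytes, whose mitochondria are also dense, Ucp1 and Elovl3 were not in the table. The other 8 markers summed to 1119 to 1454 in sham, 1109 to 1168 in day-7 TAC and 916 to 1162 in day-1 TAC. The 12 skeletal muscle markers present summed to 2009 to 2238, 1905 to 2393 and 2699 to 3270 in that order, so day-1 TAC lay above the others. In whole tissue, fewer cardiomyocytes and less RNA per cardiomyocyte cannot be told apart, and the part of cell composition in the results was not tested.

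After day-7 TAC most members lay below sham. Among the 91 tested, 32 fell and 7 rose (limma, adjusted p under 0.05). Of all genes tested 28.9% were called, 15.1% lower and 13.8% higher. The median member differed by -0.17 on the log2 scale and the median gene by -0.01. On fold change alone, 72 members were below 0 and 19 above. The libraries of the groups did not overlap for 44 of 91 members, close to the 46.7% of all genes. Averaged over the 80 tested subunits, each relative to its sham mean, the sham libraries lay at 0.10, -0.10 and -0.01, day-7 TAC 1 and 3 at -0.25 and -0.24, and day-7 TAC 2 at -0.09, inside the sham range. The count that fell varied with the scaling: with quantile normalization 22 fell and 7 rose, and with upper-quartile scaling 29 and 7. With a recomputed trimmed mean it was 31 and 7, and with median centring 32 and 7. Of the 60 subunits with a mean log2 value of at least 7, 26 fell and 0 rose. Of the 20 tested below 7, 6 fell and 3 rose. Without day-7 TAC 1, 13 of the 39 calls were kept, and without sham 1 or without day-7 TAC 3, 20 were kept in each case. Calls that held in all 9 fits that each left out 1 library included those of Atp5j, Cox7a1, Ndufa3, Ndufa4, Ndufs5, Ndufs7, Uqcr11 and Uqcrc1, all lower, and of the factors Ndufaf4 and Ndufaf6, both higher.

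After day-1 TAC the members as a whole were near sham. Of 91, 11 rose and 7 fell, and of all genes 34.8% were called, 14.3% higher and 20.5% lower, so their share of calls was below that of all genes. The median member differed by 0.02 and the median gene by -0.04. The balance of calls followed the scaling: with a recomputed trimmed mean (TMM) it was 16 higher and 2 lower, with median centring 16 and 4, with upper-quartile scaling 20 and 2, and with quantile normalization 19 and 4. Among the 11 that rose, 7 were complex I assembly factors. Groups did not overlap for 34 of 91 members, against 48.0% of all genes. Without day-1 TAC 3, 11 of the 18 calls were kept and 12 members were called. Without day-1 TAC 2 there were 7 calls, without sham 2 there were 8 and without sham 1 there were 11. Calls held in all 9 such fits for Ndufaf2, Ndufaf3 and Ndufb3, which were higher, and for Ndufv1 and Sdha, which were lower.

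Set directly against each other, the TAC groups differed in 26 of 91 members, 25 of them higher after day-1 TAC and 1, Atp5l, lower. Of all genes 16.7% were called, 6.42% higher and 10.3% lower. The median member was 0.20 higher after day-1 TAC while the median gene was 0.03 lower. Groups did not overlap for 53 of 91 members, against 38.9% of all genes. This comparison shares its day-7 TAC libraries with that of day-7 TAC against sham. Without day-1 TAC 3, 14 of the 26 calls were kept and 15 members were called. Counts were 8 without day-7 TAC 1, 10 without day-1 TAC 2 and 12 without day-7 TAC 3, and upper-quartile scaling gave 41. Members whose call held in all 9 left-out fits included Cox7a1, Cycs, Ndufa11, Ndufs5, Ndufs7, Ndufs8 and Uqcrb. The 2 comparisons with sham share the sham libraries, and their values are given side by side.

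**Figure D1:**
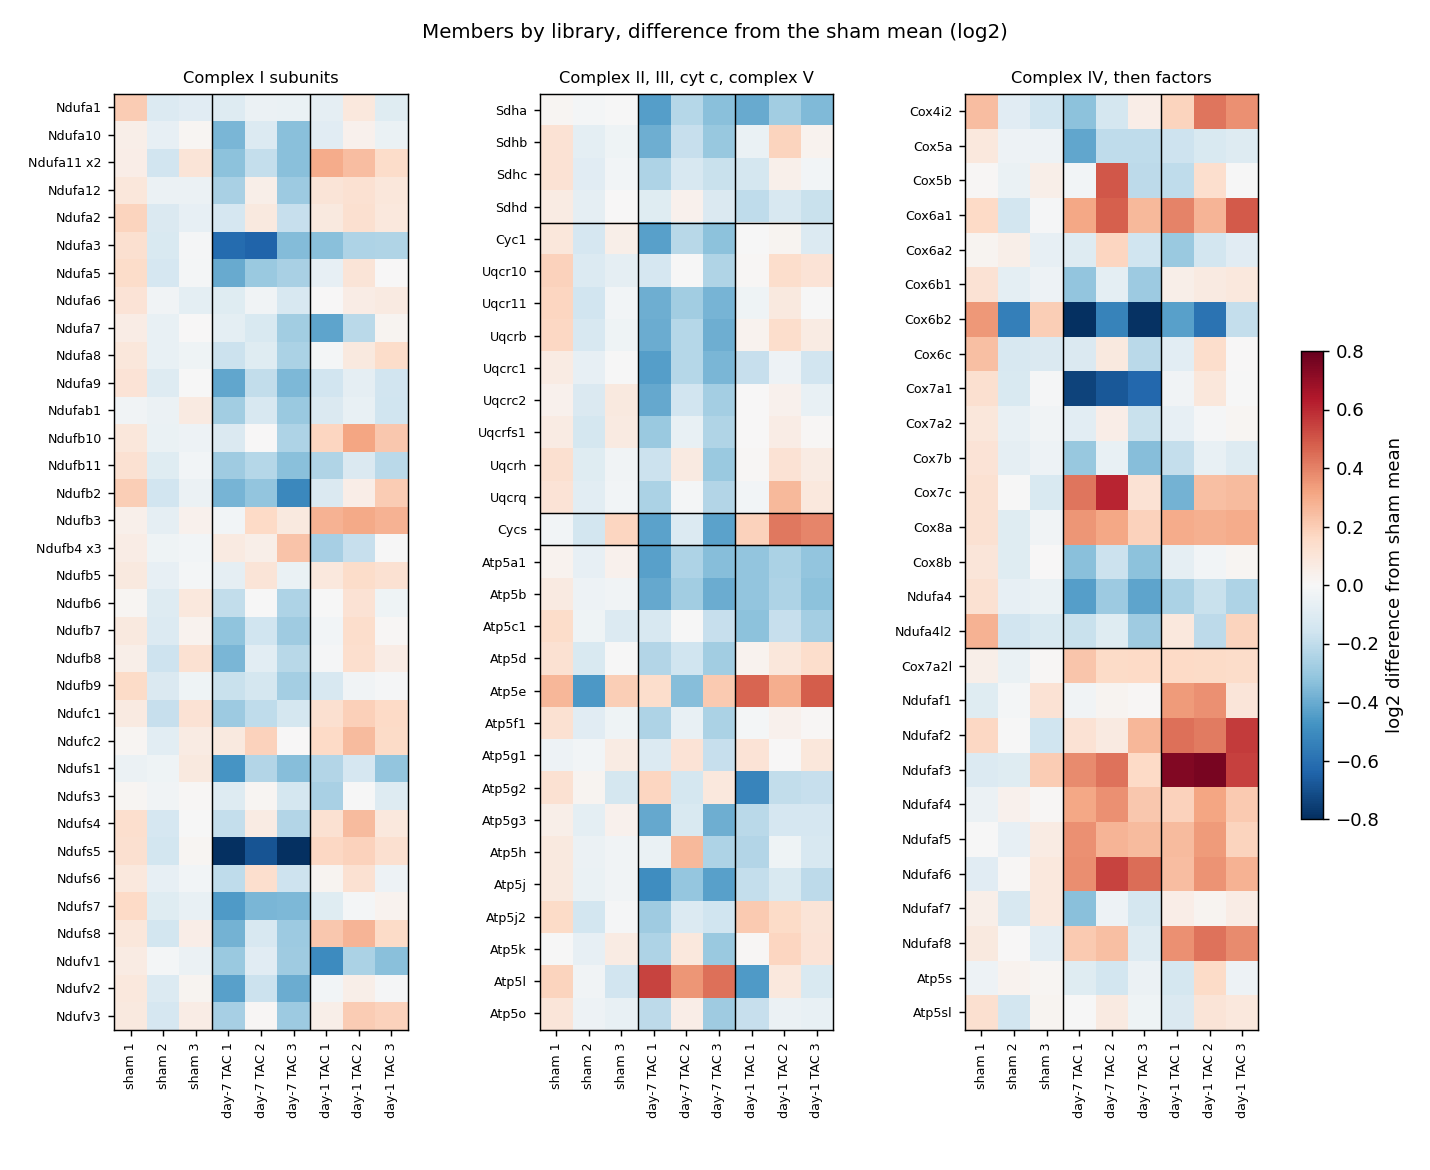
Difference of each member from its sham mean (log2) in each of the 9 libraries, members in rows by complex and libraries in columns, with colours saturating at 0.8 either way and 1 member not drawn. Day-7 TAC columns are mostly blue for subunits, day-7 TAC 2 more faintly, while the Ndufaf rows are mostly red in both TAC groups.

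**Figure D2:**
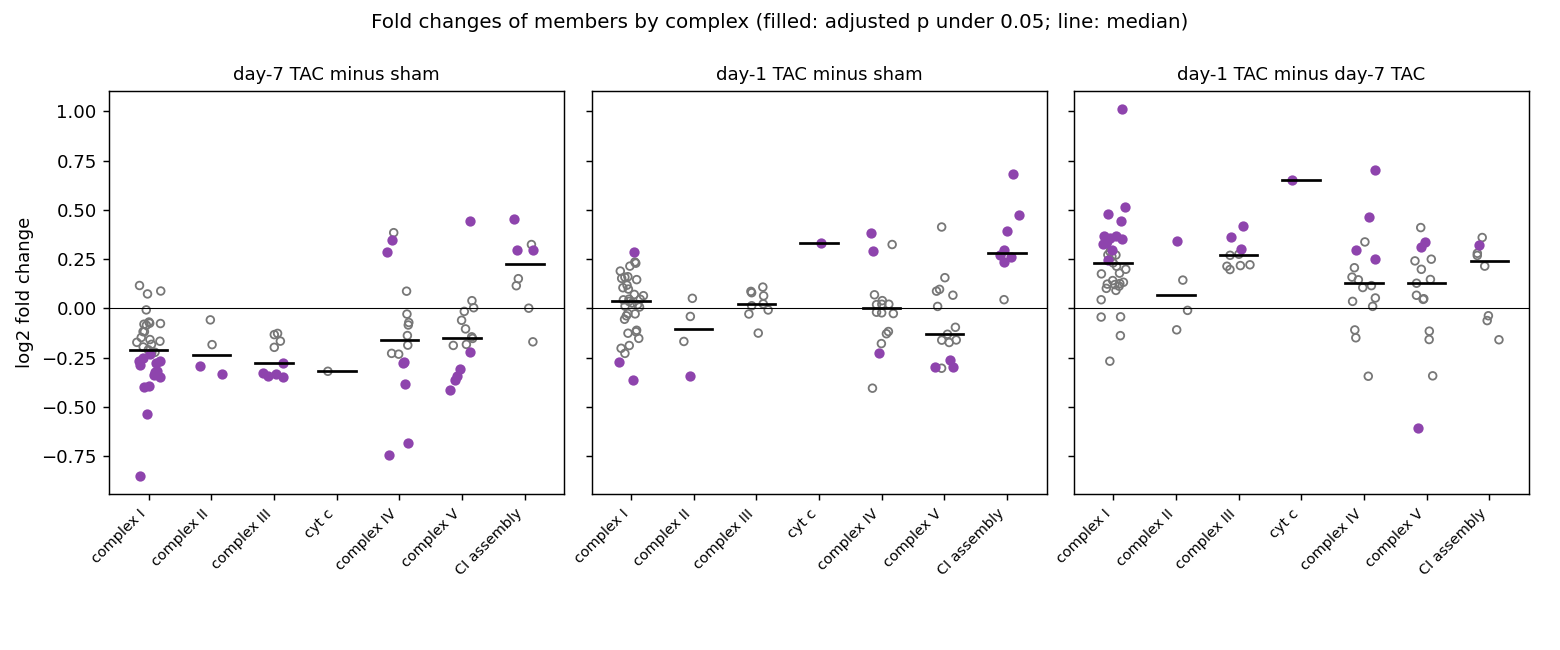
Log2 fold change of tested members by complex in the 3 comparisons (Cox7a2l, Atp5s and Atp5sl are not drawn), with members at an adjusted p under 0.05 (limma) filled and the median of each class as a line. The medians of complexes I, II and III after day-7 TAC were -0.21, -0.24 and -0.28, and that of the assembly factors was 0.22.

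Complex I has 7 core subunits among the nuclear members, which hold the flavin, the iron-sulfur clusters and the quinone site, and 28 accessory ones, which frame and stabilize the enzyme. After day-7 TAC 15 of 35 fell and 20 were not called, while 15.1% of all genes tested fell. By group, 5 of the 7 core subunits (among them Ndufs1, Ndufs7, Ndufs8 and Ndufv2) and 10 of the 28 accessory ones fell, with medians of -0.33 and -0.18. After day-1 TAC 1 of 35 rose and 2 fell, while 14.3% of all genes rose and 20.5% fell. Between the TAC groups 13 were higher after day-1 TAC, against 6.42% of all genes.

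Ndufs5, an accessory subunit on the intermembrane side, changed most. Its log2 values were 5.43, 5.16 and 5.32 in sham, 4.39, 4.61 and 4.36 after day-7 TAC, and 5.47, 5.49 and 5.43 after day-1 TAC. All 3 day-7 TAC libraries were below all 6 others, while the day-1 TAC and sham ranges overlapped. The log2 fold change after day-7 TAC was -0.85 (SE 0.09, adjusted p = 0.000275, limma), a level of 55.5% of sham. Between the TAC groups the difference was 1.01 (SE 0.09, adjusted p = 0.000583), and it lay between 0.97 and 1.09 over the 9 left-out fits. After day-1 TAC it differed from sham by 0.16 (adjusted p = 0.213). Of the 50-base windows of its transcripts, 21.71% also occur in transcripts of another gene, BC002163, which was not analysed here, so reads of these genes cannot be fully told apart.

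Each core subunit moved less than Ndufs5, although after day-7 TAC the core median (-0.33) was below the accessory one (-0.18). Ndufs7, which carries the last iron-sulfur cluster before ubiquinone, had sham values of 7.86, 7.61 and 7.65, day-7 TAC values of 7.25, 7.34 and 7.35 and day-1 TAC values of 7.61, 7.69 and 7.73. It differed by -0.39 after day-7 TAC (SE 0.08, adjusted p = 0.00485) and by 0.37 between the TAC groups (adjusted p = 0.0126). Ndufs8, another iron-sulfur subunit, was at 7.00, 7.06 and 6.93 after day-1 TAC, above each of the day-7 TAC values of 6.40, 6.65 and 6.49. That difference was 0.48 (SE 0.09, adjusted p = 0.00666). Against sham its day-7 TAC change of -0.27 had overlapping groups, and the call was lost in 6 of 9 left-out fits. Ndufs1, the largest subunit, fell by 0.35 (adjusted p = 0.0124), a call lost without day-7 TAC 1 (adjusted p = 0.0513) and under quantile normalization (adjusted p = 0.177). Ndufv1, which binds NADH and the flavin, behaved otherwise. Its values were 9.72, 9.64 and 9.61 in sham, 9.36, 9.57 and 9.37 after day-7 TAC and 9.16, 9.40 and 9.32 after day-1 TAC. It was lower after day-1 TAC (-0.36, SE 0.09, adjusted p = 0.0102) and -0.22 from sham after day-7 TAC (adjusted p = 0.0801), and neither TAC group overlapped sham.

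Among other accessory subunits of complex I, Ndufa3, a small membrane-arm subunit, measured 8.29, 8.04 and 8.16 in sham, 7.54, 7.52 and 7.82 after day-7 TAC and 7.83, 7.92 and 7.92 after day-1 TAC. Both TAC groups lay below every sham library. The log2 fold changes were -0.54 (SE 0.09, adjusted p = 0.0026) and -0.27 (SE 0.09, adjusted p = 0.045). The second was lost in 6 of 9 left-out fits and under each of the 4 other scalings, with adjusted p between 0.0708 and 0.301. Ndufa11, a membrane-arm subunit whose row repeats its name, was at 7.55, 7.34 and 7.60 in sham, 7.17, 7.31 and 7.16 after day-7 TAC and 7.79, 7.74 and 7.64 after day-1 TAC. No groups overlapped, with day-7 TAC lowest and day-1 TAC highest. The TAC groups differed by 0.51 (SE 0.08, adjusted p = 0.0041), day-7 TAC differed from sham by -0.29 (adjusted p = 0.0257, lost in 4 of 9 left-out fits), and day-1 TAC by 0.23 (adjusted p = 0.0526). Ndufb2, a low-level subunit, fell by 0.40 after day-7 TAC (adjusted p = 0.0288), a call lost without sham 1 (adjusted p = 0.0936), day-7 TAC 1 (0.0599) or day-7 TAC 3 (0.0971). Ndufc1 was 0.37 higher after day-1 than after day-7 TAC (adjusted p = 0.0162; 0.0618 without day-7 TAC 1). Ndufb3 rose after day-1 TAC, with 6.35, 6.37 and 6.35 against 6.11, 6.001 and 6.10 in sham (0.29, SE 0.07, adjusted p = 0.00972), and 6.72% of its windows are shared with another gene. Of the 35 complex I members, 20 were not called after day-7 TAC, and these included 3 with a positive fold change.

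Complex II, the succinate dehydrogenase that also belongs to the citric acid cycle, split by subunit. Sdha, the flavoprotein, measured 10.91, 10.88 and 10.89 in sham, 10.45, 10.66 and 10.55 after day-7 TAC and 10.49, 10.61 and 10.54 after day-1 TAC. Every TAC library was below every sham library. The log2 fold changes were -0.33 (SE 0.08, adjusted p = 0.0137) after day-7 and -0.34 (SE 0.08, adjusted p = 0.00993) after day-1 TAC, and the first was lost without day-7 TAC 1 (adjusted p = 0.057). Sdhb, the iron-sulfur subunit, was at 9.13, 8.94 and 8.98 in sham, 8.62, 8.83 and 8.71 after day-7 TAC and 8.96, 9.19 and 9.04 after day-1 TAC. It fell by 0.29 after day-7 TAC (adjusted p = 0.0299) and was 0.34 higher after day-1 than after day-7 TAC (adjusted p = 0.0251), and day-1 TAC differed from sham by 0.05 (adjusted p = 0.684). The day-7 call was lost without sham 1 (adjusted p = 0.0919), day-7 TAC 1 (0.105) or day-7 TAC 3 (0.0792), and the call between TAC groups in 4 of 9 such fits. Sdhc and Sdhd, which anchor the enzyme in the membrane, were not called in any comparison, with -0.18 and -0.06 after day-7 TAC and -0.04 and -0.17 after day-1 TAC.

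Complex III, which passes electrons from ubiquinol to cytochrome c, had 5 of 9 subunits lower after day-7 TAC: Uqcr11, Uqcrc1, Uqcrb, Cyc1 and Uqcrc2. All 9 fold changes were negative, between -0.35 and -0.13. After day-1 TAC limma called 0 of the 9, with 0 at an unadjusted p under 0.05 and 0 with voom weights, and fold changes ran from -0.13 to 0.11. Between the TAC groups all 9 were higher after day-1 TAC, by 0.20 to 0.42, and 3 of them passed the test. The shares of all genes tested were 15.1% lower after day-7 TAC, 34.8% called after day-1 TAC and 6.42% higher in this last comparison. Uqcrb, a small subunit at the ubiquinone pocket, measured 8.10, 7.81 and 7.90 in sham, 7.54, 7.71 and 7.55 after day-7 TAC and 7.97, 8.08 and 8.01 after day-1 TAC. The day-7 TAC libraries were the lowest of the 9. They differed from day-1 TAC by 0.42 (SE 0.09, adjusted p = 0.0106) and from sham by -0.34 (adjusted p = 0.0151, lost without day-7 TAC 1 at 0.0536 or day-7 TAC 3 at 0.0537), and 25.42% of its windows are shared with other genes. Uqcr11 fell by 0.35 (adjusted p = 0.0124) and Uqcrc1, a core subunit, by 0.34 (adjusted p = 0.0103), each in all 9 left-out fits. Cyc1, the cytochrome c1 that hands electrons on, fell by 0.33 (adjusted p = 0.0156; 0.0513 without sham 1 and 0.0611 without day-7 TAC 1) and was 0.30 higher after day-1 than after day-7 TAC (adjusted p = 0.0364, lost in 4 of 9 such fits).

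Cytochrome c, Cycs, shuttles electrons between complexes III and IV and is also known for its release in apoptosis. Its values were 7.30, 7.17 and 7.49 in sham, 6.89, 7.21 and 6.89 after day-7 TAC and 7.50, 7.74 and 7.71 after day-1 TAC. All day-1 TAC libraries were above all sham libraries, and day-7 TAC overlapped sham through day-7 TAC 2. The TAC groups differed by 0.65 (SE 0.11, adjusted p = 0.00538), a call that held in all 9 left-out fits. Day-1 TAC differed from sham by 0.33 (SE 0.11, adjusted p = 0.0419), which was lost without sham 1 (adjusted p = 0.0929), sham 2 (0.15), day-7 TAC 3 (0.0518), day-1 TAC 2 (0.116) or day-1 TAC 3 (0.106). Day-7 TAC differed by -0.32 (adjusted p = 0.0551). Processed copies of Cycs are common in the mouse genome, and 25.88% of its windows are shared with 43 other annotated genes.

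**Figure D3:**
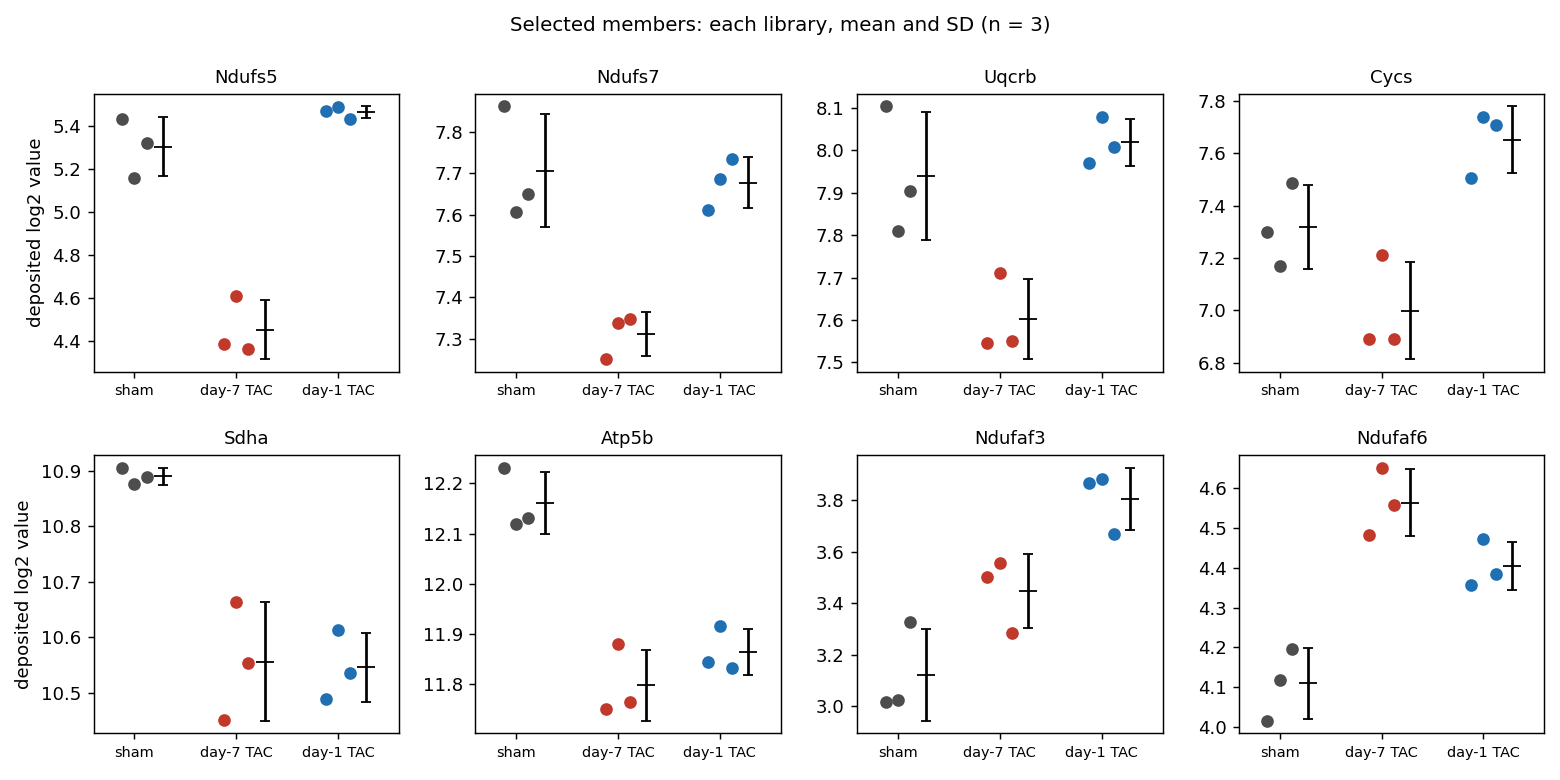
Deposited log2 values of 8 members in each library (points), with mean and SD of the 3 libraries of each group (bars) and axes that do not start at 0. Ndufs5, Ndufs7, Uqcrb and Cycs are lowest on average after day-7 TAC with day-1 TAC near or above sham, and Sdha and Atp5b are low in both TAC groups. The assembly factors Ndufaf3 and Ndufaf6 are higher than sham on average in both, with Ndufaf3 overlapping sham after day-7 TAC.

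Complex IV, cytochrome c oxidase, had 5 of 16 tested members lower and 2 higher after day-7 TAC. Of all genes tested 15.1% were lower and 13.8% higher, so the 2 of 16 were near the share of all genes. The isoforms of subunit 8 were called in opposite directions. Cox7a1, the muscle isoform of subunit 7a, measured 8.19, 7.95 and 8.06 in sham, 7.32, 7.39 and 7.44 after day-7 TAC and 8.04, 8.16 and 8.06 after day-1 TAC. No day-7 TAC library came within the range of the other 6. It fell by 0.68 (SE 0.08, adjusted p = 0.000275), to 62.3% of sham, and was 0.70 higher after day-1 than after day-7 TAC (SE 0.08, adjusted p = 0.000694), in all 9 left-out fits. Day-1 TAC differed from sham by 0.02 (adjusted p = 0.857). Its ubiquitous counterpart Cox7a2 was at 7.30, 7.15 and 7.18 in sham, 7.13, 7.26 and 7.03 after day-7 TAC and 7.15, 7.20 and 7.23 after day-1 TAC, with differences of -0.07, -0.02 and 0.05 that were not called.

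Subunit 8 is among the smallest of the complex and lies in the membrane. Cox8b, the muscle form, measured 7.92, 7.72 and 7.82 in sham, 7.48, 7.65 and 7.50 after day-7 TAC and 7.75, 7.80 and 7.83 after day-1 TAC. It fell by 0.28 after day-7 TAC (SE 0.07, adjusted p = 0.0184), a call lost without sham 1 (adjusted p = 0.0568), day-7 TAC 1 (0.066) or day-7 TAC 3 (0.0642). Cox8a, the ubiquitous form, went up in both TAC groups, with 6.39, 6.17 and 6.24 in sham, 6.62, 6.57 and 6.45 after day-7 TAC and 6.56, 6.55 and 6.56 after day-1 TAC. The changes were 0.28 (SE 0.07, adjusted p = 0.0179) and 0.29 (SE 0.07, adjusted p = 0.0131). Without sham 2 both calls were lost (adjusted p = 0.0725 and 0.0565), and the first also without day-7 TAC 1 (0.0661) or day-7 TAC 2 (0.0614).

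Cox6a1, the ubiquitous form of subunit 6a, with 9.16% of its windows shared with another gene, likewise rose in both groups. It was at 5.29, 4.98 and 5.12 in sham, 5.44, 5.61 and 5.39 after day-7 TAC and 5.52, 5.40 and 5.62 after day-1 TAC, so every TAC library was above every sham library. The changes were 0.35 (SE 0.10, adjusted p = 0.0248) and 0.38 (SE 0.10, adjusted p = 0.014). Without sham 2 the adjusted p was 0.0944 and 0.0587, and the first call was also lost without sham 3 (0.0558) or day-7 TAC 2 (0.0979). Its muscle form Cox6a2, the member with the highest level per kilobase in sham (11.06 on the log2 scale), measured 10.52, 10.55 and 10.44 in sham, 10.40, 10.68 and 10.34 after day-7 TAC and 10.21, 10.35 and 10.41 after day-1 TAC. Day-7 TAC overlapped sham and day-1 TAC did not, and the differences of -0.03 and -0.18 were not called.

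The balance of the isoforms was tested as the difference of both genes within a library, which a scaling factor per library does not change. An exact permutation test of the F statistic over the 3 groups used all 1680 assignments of libraries, with 0.00357 the smallest p possible, and p-values were adjusted over 4 pairs. Cox8b minus Cox8a was 1.56 ± 0.03 in sham, 0.996 ± 0.115 after day-7 TAC and 1.24 ± 0.05 after day-1 TAC (SD, n = 3, exact permutation, adjusted p = 0.0143). The 3 groups did not overlap at all. Cox7a1 minus Cox7a2 was 0.85 ± 0.05 in sham, 0.24 ± 0.15 after day-7 TAC and 0.89 ± 0.06 after day-1 TAC (SD, n = 3, exact permutation, adjusted p = 0.0238), so that only day-7 TAC stood apart. Cox6a2 minus Cox6a1 was 5.38 ± 0.18, 4.998 ± 0.065 and 4.81 ± 0.14 in the same order (SD, n = 3, exact permutation, adjusted p = 0.0143). Here both TAC groups were below sham and overlapped each other. Per base of exon, the muscle form made up 83.49%, 77.4% and 80.2% of the 8b and 8a pair, 76.1%, 67.58% and 76.6% of the 7a pair, and 97.71%, 97.06% and 96.66% of the 6a pair in sham, day-7 TAC and day-1 TAC. The muscle forms therefore stayed the larger part in each group. Without day-1 TAC 3 the adjusted p was 0.0143 for each of these 3 pairs. Comparisons of 3 against 3 libraries cannot go below 0.1 in such a test, so pairs of groups were not tested.

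**Figure D4:**
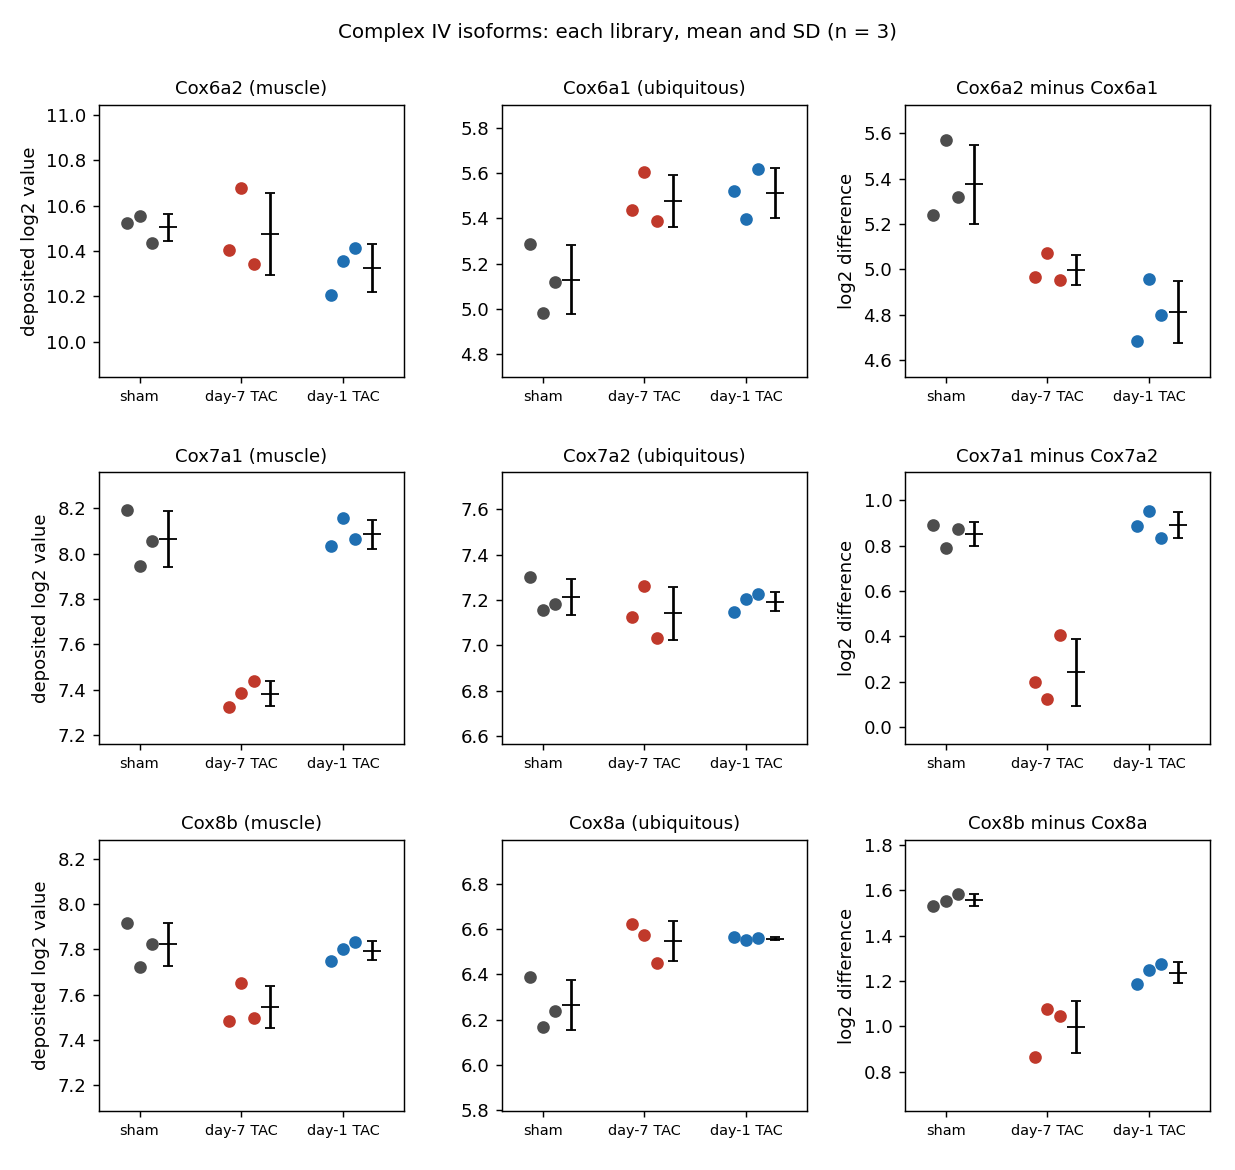
Deposited log2 values of the muscle isoform, the ubiquitous isoform and their difference within each library (points) with mean and SD (n = 3), for subunits 6a, 7a and 8 of complex IV, on axes that do not start at 0. The 7a difference drops from 0.85 to 0.24 after day-7 TAC and is 0.89 after day-1 TAC, whereas the 6a and 8 differences are below sham in both TAC groups.

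Ndufa4, once assigned to complex I and now placed in complex IV, fell in both TAC groups. It measured 8.99, 8.80 and 8.81 in sham, 8.43, 8.57 and 8.45 after day-7 TAC and 8.62, 8.69 and 8.62 after day-1 TAC. The changes were -0.38 (SE 0.07, adjusted p = 0.00424) and -0.23 (SE 0.07, adjusted p = 0.0372), and the second was lost in 6 of 9 left-out fits and under each of the 4 other scalings (adjusted p 0.0581 to 0.304). Its hypoxia-inducible relative Ndufa4l2 was much lower, at 3.04 to 3.60 over the 9 libraries, and the difference between them was not told apart among the groups (exact permutation, adjusted p = 0.246). That p was 0.0286 without day-1 TAC 2. Cox6b1, the common form of a subunit that joins the dimer, was 0.30 higher after day-1 than after day-7 TAC (adjusted p = 0.0397, lost in 7 of 9 left-out fits). Its testis form Cox6b2 was near the floor, at 2.50, 1.61 and 2.35 in sham and 1.25, 1.62 and 1.36 after day-7 TAC, and its call (-0.74, adjusted p = 0.0407) had overlapping groups and was lost in 5 of 9 such fits. Cox4i2, the lung isoform known to respond to low oxygen, was at 3.29 to 3.67 after day-7 TAC and 3.80 to 4.05 after day-1 TAC, a difference of 0.46 (adjusted p = 0.0475, lost in 6 of 9 such fits). Cox5a, which binds a regulatory thyroid metabolite, fell by 0.27 after day-7 TAC (adjusted p = 0.0199; 0.0605 without sham 1 and 0.0732 without day-7 TAC 1). Cox7b had differences of -0.23 and -0.12 from sham that were not called, and its level per kilobase (10.37) was second in this complex to that of Cox6a2.

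Complex V makes ATP with a soluble F1 head and a membrane rotor and stalk (Fo). After day-7 TAC 5 of 15 members fell and 1 rose, and after day-1 TAC 3 fell, all of the head. Of all genes tested 15.1% fell and 13.8% rose after day-7 TAC. After day-1 TAC 20.5% of all genes fell, so the 3 of 15 were near that share. Atp5b, the catalytic beta subunit and the member with the highest deposited value, measured 12.23, 12.12 and 12.13 in sham, 11.75, 11.88 and 11.76 after day-7 TAC and 11.84, 11.92 and 11.83 after day-1 TAC. Every TAC library was below every sham library. The changes were -0.36 (SE 0.09, adjusted p = 0.0172) and -0.30 (SE 0.09, adjusted p = 0.0339). Atp5a1, the alpha subunit, was close to it, at -0.34 (adjusted p = 0.0222) and -0.30 (adjusted p = 0.0343), with no overlap in either. Atp5c1, the gamma shaft, fell after day-1 TAC by 0.26 (adjusted p = 0.0448). These 3 day-1 calls were each lost in 7 of 9 left-out fits, and upper-quartile scaling gave adjusted p of 0.115 for Atp5a1, 0.106 for Atp5b and 0.135 for Atp5c1. The day-7 calls were lost for Atp5b without sham 1 (adjusted p = 0.0515), day-7 TAC 1 (0.0605) or day-7 TAC 3 (0.0598), and for Atp5a1 in 4 of 9 such fits.

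Atp5j, the coupling factor 6 of the stalk, held best, with 10.77, 10.63 and 10.66 in sham and 10.19, 10.38 and 10.25 after day-7 TAC. It fell by 0.41 (SE 0.08, adjusted p = 0.00482), in all 9 left-out fits, and was -0.17 from sham after day-1 TAC (adjusted p = 0.125). The head subunit Atp5d was lower after day-7 TAC (-0.22, adjusted p = 0.0462) and 0.31 higher after day-1 than after day-7 TAC (adjusted p = 0.02), calls lost in 7 and 4 of 9 left-out fits. Atp5j2, a small Fo subunit, was 0.34 higher after day-1 than after day-7 TAC (adjusted p = 0.0222, lost in 4 of 9 such fits). Atp5l, a subunit of the dimer interface, went the other way, with 4.81, 4.60 and 4.47 in sham, 5.17, 4.98 and 5.07 after day-7 TAC and 4.18, 4.71 and 4.51 after day-1 TAC. It rose by 0.45 after day-7 TAC (SE 0.14, adjusted p = 0.0329, lost in 5 of 9 left-out fits) and was 0.61 below it after day-1 TAC (adjusted p = 0.0151; 0.0552 without day-7 TAC 1). Of its windows, 7.63% are shared with 284 other annotated genes. The proton-carrying c ring is encoded by Atp5g1, Atp5g2 and Atp5g3, whose mature protein is the same. Atp5g3, the highest per kilobase at 7.99 in sham, fell by 0.31 after day-7 TAC (adjusted p = 0.0231, lost in 4 of 9 left-out fits), while Atp5g1 and Atp5g2, at 3.85 and 3.29 per kilobase, differed by -0.06 and 0.04 and were not called.

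The complex I assembly factors build the enzyme and leave it before it works, and they moved apart from its subunits. After day-7 TAC 3 of 8 rose (Ndufaf4, Ndufaf5, Ndufaf6), and after day-1 TAC 7 of 8 rose, the exception being Ndufaf7, a methyltransferase, at 0.04. Of all genes tested 13.8% rose after day-7 TAC and 14.3% after day-1 TAC. Ndufaf3, which works with Ndufaf4 on the early quinone module, measured 3.02, 3.02 and 3.33 in sham, 3.50, 3.56 and 3.28 after day-7 TAC and 3.87, 3.88 and 3.67 after day-1 TAC. Day-1 TAC was above all other libraries, and day-7 TAC overlapped sham. It rose by 0.68 after day-1 TAC (SE 0.13, adjusted p = 0.0029) and differed by 0.32 after day-7 TAC (adjusted p = 0.0819). Ndufaf2, a late factor, rose by 0.47 after day-1 TAC (SE 0.10, adjusted p = 0.00449), in all 9 left-out fits. Ndufaf6 measured 4.02, 4.12 and 4.20 in sham, 4.48, 4.65 and 4.56 after day-7 TAC and 4.36, 4.47 and 4.38 after day-1 TAC, so that every TAC library was above sham. Its changes were 0.45 (SE 0.09, adjusted p = 0.00419) and 0.29 (SE 0.09, adjusted p = 0.0248, lost in 4 of 9 left-out fits). Ndufaf4 rose by 0.30 (adjusted p = 0.00878) and 0.23 (adjusted p = 0.0213; 0.0561 without sham 1 and 0.0731 without day-1 TAC 2). Ndufaf5 rose by 0.30 (adjusted p = 0.0146; 0.0583 without sham 2 and 0.0558 without day-7 TAC 1) and 0.26 (adjusted p = 0.0223; 0.0847 without sham 2 and 0.0754 without day-1 TAC 2). Ndufaf8 and Ndufaf1 rose after day-1 TAC by 0.39 and 0.27 (adjusted p = 0.0207 and 0.0443), calls lost in 3 and 7 of 9 such fits. Cox7a2l, which ties complexes III and IV into supercomplexes, rose by 0.18 after day-7 TAC (adjusted p = 0.0434, lost in 7 of 9 such fits).

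Shared sequence can move reads between genes. Of 91 members found in the annotation, 22 share more than 5% of their 50-base windows with another annotated gene entry. The highest share, 89.81% for Atp5o, was with another entry of the same name, Donson and Gm5436. The 22 also include Cox6a1 (9.16%), Cox7a2l (13.83%), Uqcr11 (6.27%), Atp5g1 (10.16%) and Atp5g2 (38.35%). Among the 59 tested subunits at or below 5%, 27 fell and 1 rose after day-7 TAC, with a median of -0.22. Among the 21 above 5%, 5 fell and 2 rose, with a median of -0.08. Of all genes tested 15.1% fell and 13.8% rose. The part of shared sequence in this difference was not tested.

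Assembly factors outside the name rule were also called higher more often than lower. Of 45 in the table, 8 rose and 2 fell after day-7 TAC, 19 rose and 1 fell after day-1 TAC, and 9 were higher and 1 lower after day-1 than after day-7 TAC. Of all genes tested, 13.8% rose and 15.1% fell after day-7 TAC, and 14.3% rose and 20.5% fell after day-1 TAC. Between the TAC groups 6.42% were higher and 10.3% lower after day-1 TAC. The 8 that rose after day-7 TAC were thus not far above the share of all genes. Cox19, a copper chaperone for complex IV, rose from 4.85, 4.70 and 4.87 in sham to 5.63, 5.73 and 5.70 after day-7 TAC and 5.78, 5.61 and 5.58 after day-1 TAC. Its changes were 0.88 (SE 0.08, adjusted p = 0.000141) and 0.85 (SE 0.08, adjusted p = 0.000127). Sdhaf1, which matures Sdhb, rose in both groups by 0.54 and 0.51 (adjusted p = 0.00105 and 0.00116). Bcs1l, which inserts the iron-sulfur protein of complex III, rose after day-1 TAC by 0.66 (adjusted p = 0.000485) and was 0.55 above its day-7 TAC level (adjusted p = 0.00366). Cox10, which makes the precursor of heme A, rose after day-7 TAC by 0.48 (adjusted p = 0.00394). Coa3 and Cmc2, early complex IV factors, rose after day-1 TAC by 0.61 and 0.57 (adjusted p = 0.00356 and 0.00121). The list also holds 2010107E04Rik, a small protein of complex V rather than a factor, which fell after day-7 TAC by 0.57 (adjusted p = 0.00203) and was 0.55 higher after day-1 than after day-7 TAC (adjusted p = 0.00552).

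Enzymes of the citric acid cycle, which feed complexes I and II, had 8 of 18 lower after day-7 TAC, and after day-1 TAC 7 lower and 1 higher. The shares of all genes tested that were lower were 15.1% and 20.5%. Mdh2, the malate dehydrogenase that yields NADH, was at 10.33, 10.14 and 10.23 in sham, 9.63, 9.83 and 9.70 after day-7 TAC and 9.99, 10.09 and 10.10 after day-1 TAC. Its change after day-7 TAC was -0.52 (SE 0.08, adjusted p = 0.00169), and both TAC groups were below sham. Cs, the citrate synthase often used as a measure of mitochondrial content, fell by 0.49 (adjusted p = 0.00444) after day-7 TAC and by 0.29 (adjusted p = 0.0366, lost in 6 of 9 left-out fits) after day-1 TAC. Idh2, which makes mitochondrial NADPH, fell after day-1 TAC by 0.68 (adjusted p = 0.000975) and was 0.57 lower than after day-7 TAC (adjusted p = 0.00656). Fh1 fell in both (-0.42 and -0.34, adjusted p = 0.00456 and 0.0102).

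Of 22 membrane and import genes, 5 rose and 5 fell after day-7 TAC, and 5 rose and 6 fell after day-1 TAC. The list's median log2 fold changes were 0.07 and -0.04. Of all genes tested 13.8% rose and 15.1% fell after day-7 TAC, and 14.3% rose and 20.5% fell after day-1 TAC. The 5 that fell after day-7 TAC are not named here. Those that rose were the import pores and receptors Timm23, Tomm20, Tomm40, Tomm70a and Tomm22, of which Tomm70a was lost without day-7 TAC 1 (adjusted p = 0.0524) and Tomm22 in 5 of 9 left-out fits. Timm23, the inner membrane channel, measured 3.72, 3.58 and 3.50 in sham, 4.25, 4.27 and 4.19 after day-7 TAC and 3.40, 3.70 and 3.46 after day-1 TAC. It was 0.63 higher after day-7 TAC (SE 0.11, adjusted p = 0.0023) and 0.72 lower after day-1 than after day-7 TAC (log2 difference -0.72, adjusted p = 0.00341). Between the TAC groups its sign was opposite to that of 67 of the 80 tested subunits.

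Regulators of respiratory genes were mixed: 4 of 27 rose and 6 fell after day-7 TAC, 2 rose and 9 fell after day-1 TAC, and 3 were higher and 5 lower after day-1 than after day-7 TAC. Among all genes tested 13.8% rose and 15.1% fell after day-7 TAC, and 14.3% rose and 20.5% fell after day-1 TAC. Between the TAC groups 6.42% were higher and 10.3% lower after day-1 TAC. Ppargc1a, the coactivator known as PGC-1alpha that promotes mitochondrial biogenesis, measured 8.67, 8.46 and 8.24 in sham, 9.20, 9.38 and 9.13 after day-7 TAC and 7.14, 7.50 and 7.68 after day-1 TAC. The 3 groups did not overlap. It rose by 0.78 after day-7 TAC (SE 0.14, adjusted p = 0.00345), fell by 1.02 after day-1 TAC (SE 0.14, adjusted p = 0.000748), and differed by -1.80 between the TAC groups (adjusted p = 0.000583). Pprc1, a related coactivator, rose in both (1.16 and 0.74, adjusted p = 0.000926 and 0.00687). Ppargc1b differed by 0.40 and -0.29 from sham, neither called, and was lower after day-1 than after day-7 TAC (-0.69, adjusted p = 0.0318, lost in 4 of 9 left-out fits).

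Gabpa, the DNA-binding part of GABP, fell in both groups, from 7.21, 7.26 and 7.17 in sham to 6.80, 6.76 and 6.70 after day-7 TAC and 6.68, 6.66 and 6.61 after day-1 TAC. The changes were -0.46 and -0.57 (SE 0.06 each, adjusted p = 0.000584 and 0.00021). Nrf1, the factor whose core motif is described above, differed by -0.03 after day-7 TAC and fell by 0.34 after day-1 TAC (adjusted p = 0.0129; 0.0559 without sham 2). Esrra, Esrrg, Ppara and Tfam, an estrogen-related receptor pair, a fatty acid receptor and the mitochondrial DNA packaging factor, were not called in any comparison, with fold changes against sham from -0.18 to 0.25. Rxra, a partner of Ppara, fell in both (-0.71 and -0.51, adjusted p = 0.000554 and 0.00225). Hif3a, of the hypoxia pathway, varied most, from 5.33, 4.46 and 4.18 in sham to 2.66, 3.42 and 3.09 after day-7 TAC and 0.61, 1.21 and 2.46 after day-1 TAC, with changes of -1.60 (adjusted p = 0.0197) and -3.23 (adjusted p = 0.00058). The day-7 TAC call was lost without sham 1 (adjusted p = 0.0737), day-7 TAC 1 (0.0667) or day-7 TAC 3 (0.0511).

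**Figure D5:**
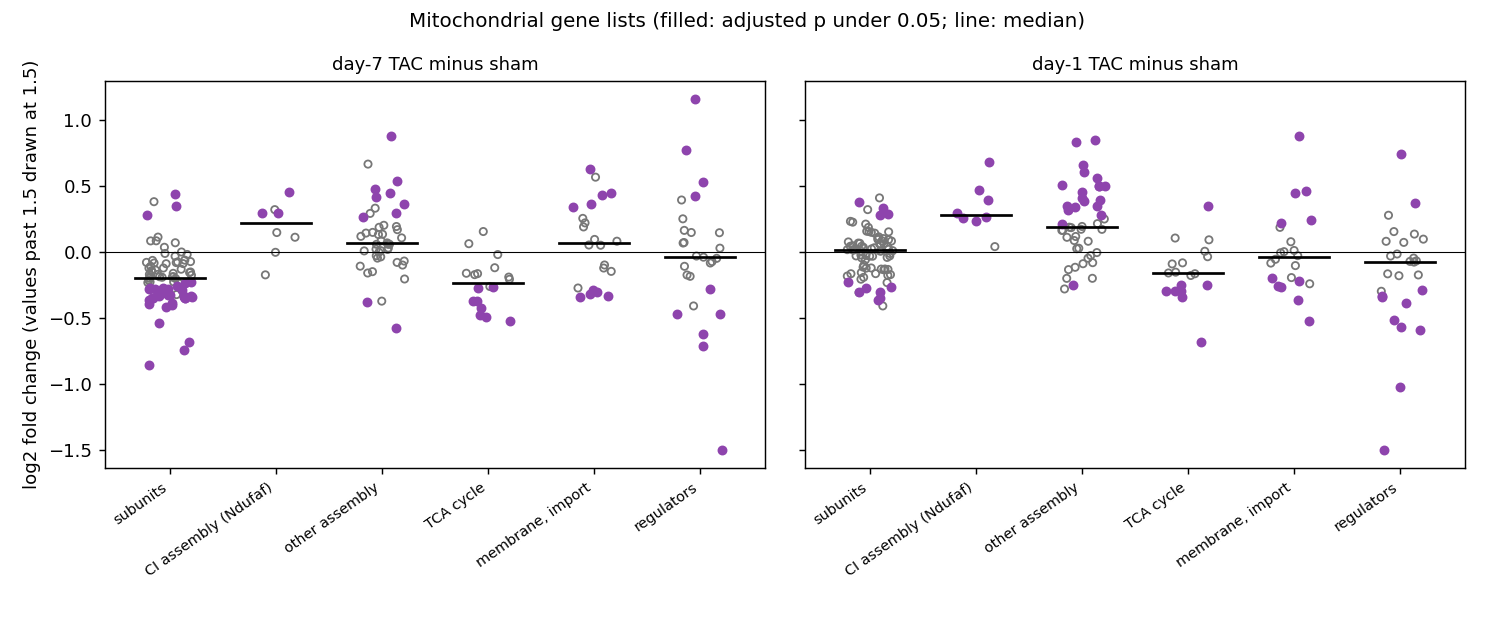
Log2 fold change against sham of tested genes in 6 mitochondrial lists after day-7 TAC (left) and day-1 TAC (right), filled at an adjusted p under 0.05 (limma), with each list's median as a line and values beyond 1.5 drawn at 1.5. Subunits and TCA cycle genes lie mostly below 0 after day-7 TAC, and assembly factors mostly above 0 after day-1 TAC.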

How the data were processed

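RNA from left ventricle was sequenced in 9 libraries. Per the submitters' processing notes, Trim Galore, STAR and edgeR were used with build mm10. Their versions, the annotation and the strand setting were not stated there. Per the file headers, the authors deposited log2 values scaled by TMM. Taken out of the log, 100.0% of them were whole multiples of a step per library (tolerance 0.001 reads), from which reads were recovered with the lowest value as 1 read. Of 16710 rows, 12 of 3 symbols that stand on 4 rows each were dropped. A sham column name stands on 2 columns, so sham 2 and 3 are names only.

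limma 3.58.1 in R 4.3.3, with an intensity trend, was fitted to all 9 libraries and 13712 genes (above 0 in at least 3 libraries). Tests were two-sided with Benjamini-Hochberg adjustment over all of them, with calls made below 0.05 after adjustment. Fold changes are differences of group means of the log2 values, with their standard error (SE). Isoform differences were adjusted over 4 pairs in place of the planned 5, since Cox4i1 was not analysed here. Steps were tested on simulated data. Alternatives were other scalings, filters, a pseudocount of 1, voom weights, 2 groups only and each library left out. Levels per kilobase use GENCODE exon lengths.

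Members and lists were chosen with earlier results of these data known. Named were all tissue isoforms, complex II, Cyc1 and Cycs, up to 5 called members per complex and comparison and up to 4 genes per list by fold change, with 8 regulators whatever their result. Others were named after their values were seen, where a count held few genes or a call held in every left-out fit. Values of 1 member are not reported here, and it is kept in the fits and counts.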

Additional observations from a re-analysis of the deposited data

Results flagged for a closer look

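Set directly against each other, the TAC groups differed in 26 members. For 9 of these that are reported here the difference between the TAC groups passed the test and, in addition, all 3 day-7 TAC libraries lay on the other side of the sham mean from all 3 day-1 TAC libraries. In each of the 9 the day-1 TAC level was the higher one. On the log2 scale the differences were 1.01 for Ndufs5, 0.65 for Cycs, 0.51 for Ndufa11 (the row that repeats its name), 0.48 for Ndufs8, 0.42 for Uqcrb, 0.37 for Ndufc1, 0.34 for Atp5j2, 0.31 for Atp5d and 0.30 for Cox6b1 (limma, adjusted p under 0.05 for each). Over all 13712 genes tested, 1.88% met both conditions with day-1 TAC higher and 3.17% with day-1 TAC lower.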

How the results depend on the processing

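No value changed direction among called members under the alternatives run. Calls after day-7 TAC were 39, and 13 to 42 with 1 library left out: 13 without day-7 TAC 1 and 20 without either sham 1 or day-7 TAC 3. After day-1 TAC there were 18 calls, and 7 to 18 with 1 library left out: 7 without day-1 TAC 2, 8 without sham 2 and 11 without sham 1. Between the TAC groups there were 26, and 8 to 26 with 1 library left out: 8 without day-7 TAC 1, 10 without day-1 TAC 2, 12 without day-7 TAC 3 and 15 without day-1 TAC 3. Quantile normalization gave 29 after day-7 TAC (7 higher, 22 lower). Upper-quartile scaling gave 41 between the TAC groups (40 higher, 1 lower). Limma with voom weights on recovered reads, added after seeing the data, called 36, 20 and 30 members in the 3 comparisons. With the replicate number as a block, TAC libraries only, 14 were called (14 higher). Same-numbered TAC libraries did not deviate together (r = -0.224, -0.11 and -0.036), so the numbers are not taken to pair samples. Adjusted p for Ndufa4l2 minus Ndufa4 ran from 0.0286 (without day-1 TAC 2) to 0.468 with 1 library left out. The cause of these shifts was not tested. The planned count tests with edgeR and DESeq2 on recovered reads were not run, and limma with voom weights stood in for them. The Cox4i2 to Cox4i1 difference was not run. With 3 libraries a group small changes were rarely called: of 45 members within 0.2 of sham on the log2 scale after day-7 TAC, limma called 1.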
